A study of Homo sapiens with 6 samples.

Results

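Noncoding RNAs made by RNA polymerase III, with BCYRN1 (BC200 RNA) at their head, were examined in HCT116 cells, a human colorectal carcinoma line, after overexpression of the RNA-binding protein RBM47. The list named 6 genes by symbol, BCYRN1, RN7SL1, RN7SL2, RN7SK, RMRP and RPPH1, and 4 of them had a row under that symbol among the 28491 genes of the deposited count table. The RNA of RN7SK had a row under its older name 7SK (ENSG00000202198), a match made after the table was seen, so 5 RNAs were measured. RN7SL2 had no row and was not analysed here. BCYRN1 was put on the list because its level is lower in RBM47-OE in these same libraries, so its difference is given as a description, with no test. The other RNAs were listed for their polymerase and were tested.

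The NC group held 3 libraries of HCT116 cells given a control plasmid, and the RBM47-OE group held 3 libraries of HCT116 cells given a plasmid that carries RBM47. Both groups were transfected with a Lipofectamine reagent and harvested after 48 h, and the labels name pcDNA3.1-3xFlag-RBM47 as the plasmid where the methods name pIRES-hrGFP-1a. A plasmid driven by its own promoter in a transient transfection gives a level set by the plasmid and not by the RBM47 gene, and the share of cells that took it up was not measured here. Nothing in the labels says that the libraries of a group came from separate cultures, so the p-values measure the spread between these libraries, which may be technical. Polyadenylated RNA was selected before sequencing, and the authors counted only reads that mapped to a single place in the genome. The libraries held between 26792409 and 35477983 counts on genes.

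Values per library are given in the order of replicates 1, 2 and 3, a numbering with no meaning of time or dose. RBM47 had an FPKM (fragments on a gene per kilobase of its length, scaled to the mapped fragments of the library) of 1.91, 2.33 and 1.94 under NC and of 131.3, 130.4 and 127.0 under RBM47-OE, so the labels fitted the plasmid. All 7 of 7 epithelial markers, EPCAM and the keratins KRT8, KRT18 and KRT19 among them, had counts in every library, with 207760 to 293628 counts in sum. The markers of blood, endothelium, fibroblasts, liver and glia had 389 to 546 counts in sum, most of them on COL1A1, and 3 of the 10 had no row. Exonic GC content also moved with the groups. Spearman's rho across 16234 genes, between GC content and the log2 difference from NC, was -0.41, -0.59 and -0.67 for the RBM47-OE libraries, and a single NC library set against the rest of NC gave -0.16 to 0.13. No p is attached, since genes are not replicates. The RNAs described here had GC contents of 53% to 63.3%, against a median of 49.0% over all tested genes, so the fitted values of these RNAs and the calls of each gene list are also given from a fit that took out this trend (the GC offset). Its part in the differences was not tested further.

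RNA polymerase III makes short, abundant, structured RNAs such as transfer RNAs and 5S ribosomal RNA, and ends them at a run of T in the coding strand rather than at a poly(A) signal. BC200 RNA, the product of BCYRN1, is a primate RNA best known from neurons, where it is found in dendrites and represses translation initiation, and it has also been found in tumours. Its 5′ part is related to Alu elements and so to 7SL RNA, which RN7SL1 encodes and which is the scaffold of the signal recognition particle (SRP), the particle that brings ribosomes making secreted proteins to the endoplasmic reticulum. 7SK RNA holds the elongation factor P-TEFb in an inactive particle. RMRP is the RNA of RNase MRP, which cuts the precursor of ribosomal RNA, and RPPH1 is the RNA of RNase P, which trims the 5′ end of transfer RNA precursors.

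The sequences of these RNAs bear on what a poly(A)-selected, uniquely mapped library can hold of them. They were read from GRCh38 at the coordinates of GENCODE 44, 5′ to 3′ on the strand of the gene, with T for U. BCYRN1 lies on the plus strand at chr2:47335315-47335514, in a single exon inside an intron of EPCAM-DT, which runs on the opposite strand. RN7SL1 lies on the plus strand at chr14:49586580-49586878, in a single exon inside an intron of RPS29, which also runs on the opposite strand. BCYRN1 held 33 A in 40 bases (82.5%) from base 121 to base 160, with a longest run of 11 A from base 130. RN7SL1 held at most 12 A in 40 bases (30%), with a longest run of 4 A. Bases 2 to 117 of BCYRN1 aligned with bases 1 to 104 of RN7SL1 at 74.4% identity, 87 of 117 columns, which is the Alu-related part that the RNAs share. A run of at least 4 T, the stop signal of RNA polymerase III, was present at or just past the 3′ end of each gene described here, with 4 T at BCYRN1, RN7SL1 and RN7SK, 6 at RMRP and 5 at RPPH1.

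The other 3 RNAs are shown by their 40 bases richest in A, in capitals throughout, to be read against the A content of BCYRN1. RN7SK lies on the plus strand at chr6:52995621-52995948, RMRP on the minus strand at chr9:35657754-35658017, and RPPH1 on the minus strand at chr14:20343075-20343407, each in a single exon.
RN7SK: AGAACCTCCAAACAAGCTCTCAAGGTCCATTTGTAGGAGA
RMRP: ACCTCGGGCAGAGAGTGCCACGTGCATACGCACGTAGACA
RPPH1: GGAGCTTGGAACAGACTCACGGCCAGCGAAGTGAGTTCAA
These stretches are bases 216 to 255 of RN7SK with 14 A (35%), bases 81 to 120 of RMRP with 11 A (27.5%), and bases 232 to 271 of RPPH1 with 12 A (30%). None of these RNAs, nor RN7SL1, had a run of more than 4 A, and BCYRN1 was the only one with an internal stretch made mostly of A. Whether BCYRN1 molecules were held by oligo(dT) at that stretch was not tested, and reads from such capture cannot be told apart from those of molecules that carried an added tail.

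The RNAs also differed in how much of their sequence occurs in more than 1 place, which bears on a count of uniquely mapped reads. Every window of 50, 100 and 150 bases of each RNA was looked for, exactly and on both strands, in the primary assembly of GRCh38. Of the 50-base windows of BCYRN1, 98.0% had an exact copy elsewhere, as did 97.0% of its 100-base windows and 72.5% of its 150-base windows. The most repeated 50-base window of BCYRN1 occurred at 36 places, and its 150-base windows at no more than 2. For RN7SL1 the shares were 84.4%, 74.5% and 66.0%, and for RN7SK they were 77.1%, 52.0% and 0. RMRP and RPPH1 had no window with an exact copy elsewhere at any of these lengths. The 7SL genes are near-identical to each other. RN7SL1 and RN7SL2 shared 98.3% of aligned bases with 4 mismatches, and RN7SL1 and RN7SL3 shared 97.7% with 7 mismatches, so reads of 7SL RNA could be split among these genes or dropped, and the level of any of them taken singly is uncertain. The plot of repeated sequence shows these shares for each RNA.

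**Figure D1:**
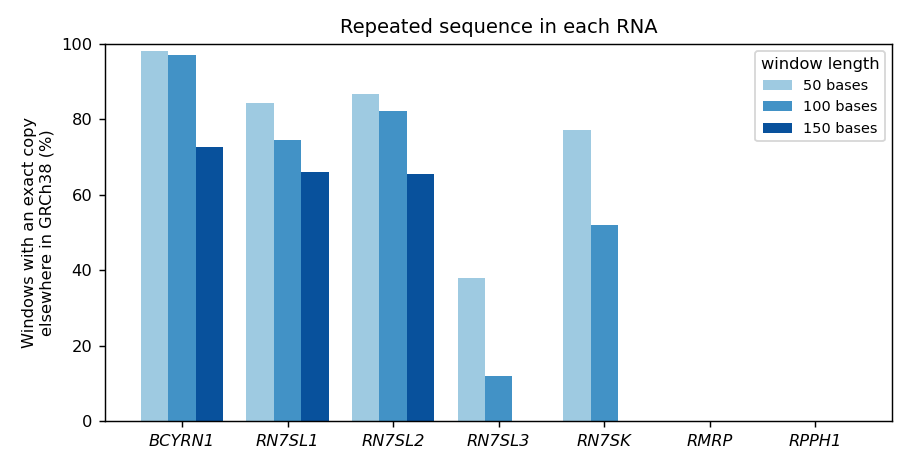
Share of windows of 50, 100 and 150 bases, in percent of all windows of the RNA, that have an exact copy elsewhere in GRCh38, for each RNA and for RN7SL2 and RN7SL3. BCYRN1, RN7SL1 and RN7SL2 stay above 60% at 150 bases, RN7SK falls from 77.1% to 0, and RMRP and RPPH1 have no bar because no window had a copy.

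The deposited table does not describe each gene model, so the length behind each FPKM value was worked out from counts and FPKM, with the scale of each library set on 192 genes with 1 exon. The implied lengths were 200 bases for BCYRN1, 299 for RN7SL1, 331 for 7SK and 268 for RMRP, near or equal to the annotated lengths of 200, 299, 331 and 264. The implied length of RPPH1 was 637 bases, where RPPH1 itself is 333. That row has the identifier of a longer model of 638 bases on the minus strand at chr14:20343048-20343685, which contains RPPH1 and overlaps an exon of PARP2 on the other strand. The labels and the methods name different library kits, both of a kind that keeps strand, and the sources used here do not say whether strand was used in counting. Without it, reads where the longer model overlaps the start of PARP2 cannot be assigned to one or the other. RPPH1 itself ends at 20343407 and does not reach PARP2, which starts at 20343615.

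Per kilobase of gene, RN7SL1 stood far above the other RNAs. Its FPKM was higher than that of 99.9% of the 28244 genes in the NC libraries. BCYRN1 was higher than 82.9% of genes there, 7SK than 80.9%, RMRP than 70.1% and RPPH1 than 57.3%. In NC the order of FPKM ranges was RN7SL1, then BCYRN1 and 7SK, which overlapped each other, then RMRP and then RPPH1. In RBM47-OE the order of the means was RN7SL1, 7SK, RMRP, BCYRN1 and RPPH1. The lowest 7SK library, at 3.39, touched the highest RMRP library, at 3.40, and the ranges of RMRP and BCYRN1 overlapped. BCYRN1 was therefore level with 7SK in NC and with RMRP in RBM47-OE. These are levels after poly(A) selection, where RNAs with no tail are depleted, from reads that mapped to a single place, and they do not give the abundance of the RNAs in the cell.

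BCYRN1 drew 50, 68 and 33 counts with the control plasmid and 18, 12 and 17 with RBM47. FPKM stood at 8.16, 8.50 and 4.95 under NC and at 2.41, 1.73 and 2.65 under RBM47-OE. All RBM47-OE libraries were below all NC libraries, and within NC the third library stood lowest, nearer to the RBM47-OE values than the others. Mean FPKM was 7.20 ± 1.96 for NC and 2.26 ± 0.477 for RBM47-OE (SD, n = 3 each). On CPM, counts scaled to library size after TMM normalization, the means were 1.67 ± 0.456 and 0.502 ± 0.113 (SD, n = 3 each), so the NC mean was 3.33 times the RBM47-OE mean. The fitted log2 fold change, with RBM47-OE against NC, was -1.74 (SE 0.328), with an approximate 95% interval of -2.38 to -1.09, and it was -1.61 with the GC offset. Of the 16260 genes tested, 8 had a lower fitted value. This gene was chosen for that difference, and 16.9% of all tested genes were called lower at an adjusted p under 0.05 in the same fit, so no p is attached to it. All 6 libraries together held 198 counts of it, and in bulk RNA a smaller share of cells with the RNA and less RNA per cell cannot be told apart.

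RN7SL1, the 7SL RNA gene, drew 10785, 11736 and 6764 counts with the control plasmid and 9168, 10226 and 7295 with RBM47. FPKM stood at 1177, 981 and 679 under NC and at 823, 988 and 759.7 under RBM47-OE. The groups overlapped, and the highest and the lowest library were both NC. Mean FPKM was 945 ± 251 for NC and 857 ± 118 for RBM47-OE (SD, n = 3 each). Its log2 fold change was -0.22 (SE 0.119), with an interval of -0.45 to 0.02, which did not pass the test (edgeR's quasi-likelihood test, adjusted p = 0.166). The GC offset brought it to -0.0042 (edgeR adjusted p = 0.987). RN7SL1 had the deepest counts of these RNAs, and its interval was the narrowest, 0.732 to 1.01 as a fold. The call turned on single libraries and on the filter. Without NC replicate 3 the log2 fold change was -0.41 and passed the test (edgeR adjusted p = 0.0047), and without NC replicate 1 it was -0.02. With all libraries but no filter on low counts it was -0.21 and also passed (edgeR adjusted p = 0.0247).

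7SK RNA drew 62, 79 and 65 counts with the control plasmid and 64, 49 and 36 with RBM47. FPKM stood at 6.11, 5.96 and 5.89 under NC and at 5.19, 4.28 and 3.39 under RBM47-OE. The NC libraries lay close together and all RBM47-OE libraries were below them, a separation that 23.4% of all tested genes showed on CPM. Mean FPKM was 5.99 ± 0.112 for NC and 4.29 ± 0.900 for RBM47-OE (SD, n = 3 each). The exact two-sided permutation test of its CPM gave p = 0.1, the smallest that 3 libraries against 3 allow. Its log2 fold change was -0.54 (SE 0.231), with an interval of -0.997 to -0.0922, and did not pass the threshold (edgeR adjusted p = 0.0671). Under the GC offset it was -0.37 (edgeR adjusted p = 0.300). Without RBM47-OE replicate 1, the highest library of its group, the value was -0.72 and passed the test (edgeR adjusted p = 0.0216).

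RMRP drew 27, 35 and 14 counts with the control plasmid and 34, 26 and 16 with RBM47. FPKM stood at 3.29, 3.26 and 1.57 under NC and at 3.40, 2.80 and 1.86 under RBM47-OE. The groups overlapped over nearly their whole range, and replicate 3 was the lowest library of each group. The means were 2.71 ± 0.984 and 2.69 ± 0.776 (SD, n = 3 each). Its log2 fold change was -0.07 (SE 0.360), with an interval of -0.78 to 0.63 (edgeR adjusted p = 0.900), and it turned to 0.13 with the GC offset (edgeR adjusted p = 0.854). The interval spans folds of 0.582 to 1.55, so differences in either direction within it are compatible with these counts.

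RPPH1 drew 16, 20 and 16 counts with the control plasmid and 13, 17 and 11 with RBM47, which made it the shallowest of these RNAs. FPKM stood at 0.82, 0.78 and 0.75 under NC and at 0.55, 0.77 and 0.54 under RBM47-OE. On FPKM the groups overlapped, with RBM47-OE replicate 2 inside the NC range, whereas on TMM-normalized CPM that library, at 0.529, was below the lowest NC library, at 0.556. Mean FPKM was 0.783 ± 0.0351 for NC and 0.620 ± 0.130 for RBM47-OE (SD, n = 3 each). Its log2 fold change was -0.41 (SE 0.392), with an interval of -1.18 to 0.36 (edgeR adjusted p = 0.442), and it was -0.22 with the GC offset (edgeR adjusted p = 0.765).

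Of the 4 RNAs that were tested, none was called in either direction by edgeR at an adjusted p under 0.05, where 35.9% of all tested genes were called. Before adjustment 1 of the 4 passed 0.05 in edgeR's quasi-likelihood fit over all genes, 7SK at 0.0261. DESeq2 also called none and gave RPPH1 no adjusted p, while limma on log2(FPKM + 1) called 7SK (log2 fold change -0.42, adjusted p = 0.0292). All 5 RNAs passed the filter on low counts. The plot of FPKM by library shows the separation of BCYRN1 and of 7SK and the overlap of the rest, and the plot of fitted differences shows that every value moves upward with the GC offset.

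**Figure D2:**
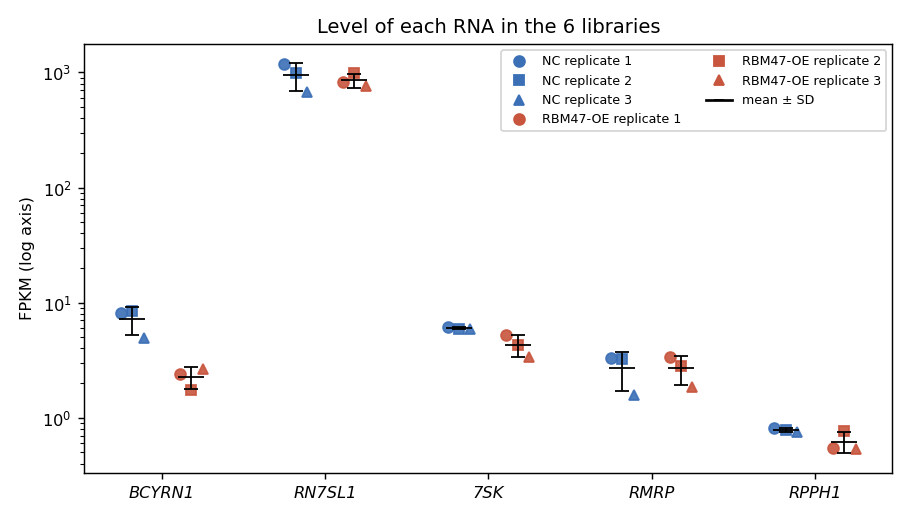
FPKM of BCYRN1, RN7SL1, 7SK, RMRP and RPPH1 on a log axis, with 1 point for each of the 3 NC and 3 RBM47-OE libraries, marked by replicate, and black lines for the mean ± SD of each group. The RBM47-OE points of BCYRN1, 1.73 to 2.65, lie below its NC points, 4.95 to 8.50, and those of RN7SL1 and RMRP lie among the NC points.

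**Figure D3:**
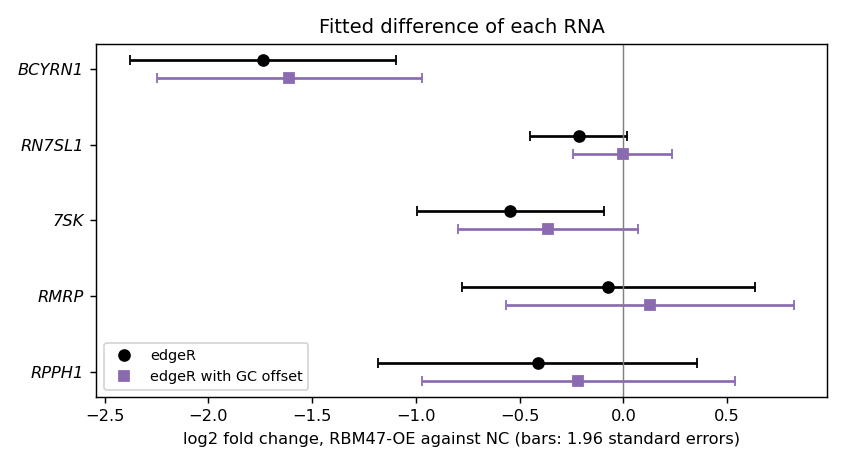
Fitted log2 fold change of each RNA, RBM47-OE against NC, from edgeR (black) and from edgeR with the GC offset (purple), with bars of 1.96 standard errors. The bar of 7SK crosses 0 with the GC offset, and those of RN7SL1, RMRP and RPPH1 cross 0 in both fits. BCYRN1 was chosen for its difference, so its bar is a description and its place relative to 0 is not a test.

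The libraries moved together for several of these RNAs. NC replicate 3 had the lowest FPKM of the NC libraries for each of the 5 RNAs, and RBM47-OE replicate 3 had the lowest of its group for 7SK, RMRP and RPPH1 and also for RN7SL1, but the highest for BCYRN1. The cause of this shared spread was not tested. Ratios within a library do not depend on how the libraries were scaled, and were used to set BCYRN1 against the others. Scaled as counts per 1000 RN7SL1 counts, BCYRN1 stood at 4.64, 5.79 and 4.88 under NC and at 1.96, 1.17 and 2.33 under RBM47-OE. The groups did not overlap, with means of 5.10 ± 0.611 for NC and 1.82 ± 0.591 for RBM47-OE (SD, n = 3 each). Relative to the mean, the NC libraries lay closer together on this ratio than on FPKM (7.20 ± 1.96, SD, n = 3). The RBM47-OE libraries lay further apart on it than on FPKM (2.26 ± 0.477, SD, n = 3). BCYRN1 counts per 7SK count were 0.806, 0.861 and 0.508 under NC and 0.281, 0.245 and 0.472 under RBM47-OE, and replicate 3 of NC and replicate 3 of RBM47-OE were close to each other. BCYRN1 counts per RMRP count were 1.85, 1.94 and 2.36 in NC and 0.529, 0.462 and 1.06 in RBM47-OE. BCYRN1 was thus lower in RBM47-OE against each of these RNAs in the same library, again as a description of the gene chosen for that difference.

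Ratios among the other RNAs did not separate the groups. RN7SL1 counts per RN7SL3 count, the ratio of 2 near-identical 7SL genes, were 17.6, 19.7 and 18.4 in NC and 19.5, 19.6 and 23.2 in RBM47-OE (exact two-sided permutation test, p = 0.3). RMRP counts per RPPH1 count, 1.44 ± 0.488 in NC and 1.87 ± 0.650 in RBM47-OE (SD, n = 3 each), gave p = 0.6 in the same exact test. RN7SL1 counts per 7SK count, 142 ± 35.4 in NC and 185 ± 36.2 in RBM47-OE (SD, n = 3 each), gave p = 0.3 in the exact test.

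RN7SL3, a 7SL gene near RN7SL2 that was not among the listed members, followed RN7SL1. It drew 613, 595 and 367 counts under NC and 469, 523 and 315 under RBM47-OE. The groups overlapped, and the log2 fold change was -0.36 (SE 0.153, edgeR adjusted p = 0.0685), or -0.15 with the GC offset (edgeR adjusted p = 0.569). The 88 rows named as 7SL pseudogenes held 102, 92 and 78 counts in sum in NC and 96, 93 and 96 in RBM47-OE. Of these rows, 70 had at most 3 counts in every library. The 22 rows of 7SK pseudogenes held 15, 28 and 26 counts in NC and 31, 24 and 23 in RBM47-OE. The 7SL pseudogenes thus carried few uniquely mapped reads beside RN7SL1, in both groups. The sums of the 7SK pseudogenes were below the count of the 7SK row in every library, 62, 79 and 65 in NC and 64, 49 and 36 in RBM47-OE, but were not small beside it, least so in RBM47-OE.

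The other RNA polymerase III transcripts were almost absent from these counts, which leave out reads of repeated sequence, so their presence in the libraries is not known. Of 19 listed genes (vault RNAs, Y RNAs, U6, 5S ribosomal RNA and snaR RNAs), 6 had a row, and the 5 of them other than RN7SL3 had 5, 4 and 1 counts in sum in NC and 2, 0 and 1 in RBM47-OE. No direction can be read from such counts. Of 34 other short RNAs without a poly(A) tail, spliceosomal, nucleolar and Cajal body RNAs made by RNA polymerase II among them, 19 had a row and 4 passed the filter. The 19 summed to 7.35, 6.99 and 7.38 under NC and 6.31, 6.12 and 5.48 under RBM47-OE, in counts scaled to the library total as in CPM, with all RBM47-OE libraries below all NC libraries. Among single tested genes, 23.4% showed that separation on TMM-normalized CPM. SNORD3A, a gene of the U3 RNA that guides ribosomal RNA processing, was the only one of the 4 called, where 16.9% of all tested genes were called lower and 19.1% higher. It had 72, 103 and 90 counts in NC and 76, 56 and 61 in RBM47-OE, and fell by 0.53 on the log2 scale (SE 0.200, edgeR adjusted p = 0.0422), but with the GC offset the value was -0.38 (edgeR adjusted p = 0.203). In NC replicate 1 the SNORD3A row had an FPKM of 3.36 at 72 counts, where 7SK, of 331 bases, had 6.11 at 62 counts. The SNORD3A row therefore covers a model longer than that of 7SK, and the share of its reads from U3 RNA itself was not tested. TERC, the telomerase RNA, drew 48, 49 and 60 counts under NC and 36, 46 and 28 under RBM47-OE, and had a log2 fold change of -0.60 (SE 0.265, edgeR adjusted p = 0.0802). With the GC offset TERC had -0.38 (edgeR adjusted p = 0.373). The other two of the 4 were not called, SNORD17 at 0.25 (edgeR adjusted p = 0.505) and SNORA73B at -0.01 (edgeR adjusted p = 0.989), both nucleolar RNAs. BCYRN1 at -1.74 lay below the values of these 4 RNAs, which ran from -0.60 to 0.25, and below the 7SK value of -0.54. Among the rows that did not pass the filter, SCARNA2 had a mean of 0.270 CPM in NC against 0.0844 in RBM47-OE and SNORD3B-1 of 0.149 against 0.0424, both named after their values were seen, with folds that are of the size seen for BCYRN1 but rest on at most 9 counts in a library.

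Genes near BCYRN1 on chromosome 2 gave other values. EPCAM, the epithelial adhesion molecule gene that starts downstream of BCYRN1 on the same strand, rose by 0.26 on the log2 scale (SE 0.072, edgeR adjusted p = 0.0070), and by the same 0.26 with the GC offset. EPCAM-DT, whose intron holds BCYRN1, had 4, 5 and 2 counts in NC and 13, 7 and 2 in RBM47-OE and did not pass the filter. CALM2, a calmodulin gene, had a log2 fold change of 0.19 (SE 0.079, edgeR adjusted p = 0.0581), which turned to -0.05 with the GC offset (edgeR adjusted p = 0.689). KCNK12, a potassium channel gene, had at most 1 count in a library. Of all tested genes, 19.1% were called higher and 16.9% lower.

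The proteins that bind these RNAs were taken from lists of the known particles. Of 8 genes of SRP proteins and of the SRP receptor, all tested, 3 rose and 2 fell, with a median log2 fold change of 0.05. Over all tested genes 19.1% rose and 16.9% fell by the same test, or 5.97% and 8.57% with the GC offset. The same shares apply to each list below. SRP72, an SRP core protein, rose by 0.54 (SE 0.086, edgeR adjusted p = 7.4e-05), from 111 ± 4.48 to 161 ± 24.5 CPM (SD, n = 3 each). SRP54, the GTPase that binds the signal sequence, rose by 0.43 (SE 0.078, edgeR adjusted p = 2.3e-04), and SRP9, which binds the Alu domain of 7SL and of BC200 RNA, rose by 0.32. The receptor subunits moved the other way, SRPRB by -0.23 (edgeR adjusted p = 0.0218) and SRPRA by -0.18 (edgeR adjusted p = 0.0396). SRP14, the partner of SRP9, had a value of -0.10 and was not called. Under the GC offset, 1 of the 8 rose (SRP72, 0.17) and 1 fell (SRPRB, -0.32).

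Of 10 genes of proteins known to bind BC200 RNA, 4 rose and 2 fell, against 19.1% and 16.9% of all tested genes. Their median was 0.12. SRP9 is on this list too. SSB, the La protein that binds the 3′ ends of RNA polymerase III transcripts, rose by 0.34 (SE 0.082, edgeR adjusted p = 0.0026), and SYNCRIP, which binds A-rich RNA, rose by 0.32 (edgeR adjusted p = 0.0032). PCBP1 and PCBP2, which bind C-rich RNA, fell by 0.26 (edgeR adjusted p = 0.0069) and by 0.19 (edgeR adjusted p = 0.0262). PABPC1, the cytoplasmic poly(A)-binding protein, stood at 1883 ± 18.1 CPM in NC and 1959 ± 32.8 CPM in RBM47-OE (SD, n = 3 each), with a log2 fold change of 0.06 that was not called. None of the 10 rose in edgeR under the GC offset, and 1 fell, PCBP2 (-0.28).

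Of 7 genes of the 7SK particle and of P-TEFb, 3 rose and 2 fell, against 19.1% and 16.9% of all tested genes. LARP7, the protein that binds the 3′ end of 7SK RNA, rose by 0.43 (SE 0.089, edgeR adjusted p = 7.2e-04), from 33.1 ± 1.93 to 44.5 ± 4.98 CPM (SD, n = 3 each), and the cyclin CCNT2 rose by 0.43 (SE 0.113, edgeR adjusted p = 0.0046). MEPCE, which caps the 5′ end of 7SK RNA, fell by 0.27 (edgeR adjusted p = 0.0069), and CDK9, the kinase of P-TEFb, fell by 0.23 (edgeR adjusted p = 0.0163). HEXIM1 and HEXIM2, the inhibitors of the kinase, had values of -0.11 and -0.03 and were not called. None of the 7 was called by edgeR in either direction under the GC offset, where 5.97% of all tested genes were called higher and 8.57% lower.

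Of 11 genes of RNase P and RNase MRP proteins, 10 passed the filter, 1 rose and 3 fell, against 19.1% and 16.9% of all tested genes. POP7 fell by 0.39 (SE 0.078, edgeR adjusted p = 4.9e-04), from 53.1 ± 1.26 to 40.4 ± 2.75 CPM (SD, n = 3 each), and RPP25L fell by 0.30 (SE 0.083, edgeR adjusted p = 0.0057). RPP14 rose by 0.23 (SE 0.079, edgeR adjusted p = 0.0235), and the call for POP5 was a fall of 0.27 (edgeR adjusted p = 0.0179). Under the GC offset POP5 and POP7 fell, and none rose.

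The genes that make and control RNA polymerase III were set beside its products. Of 18 subunit genes, 2 rose and 9 fell, against 19.1% and 16.9% of all tested genes. Their median log2 fold change was -0.17, where the median over all tested genes was 0 at 2 decimals (3.96e-05). POLR2L and POLR2E, small subunits that all 3 nuclear polymerases share, fell by 0.63 (SE 0.080, edgeR adjusted p = 1.5e-05) and by 0.44 (SE 0.073, edgeR adjusted p = 1.0e-04). POLR2L went from 163 ± 5.24 to 105 ± 13.4 CPM (SD, n = 3 each). POLR3A and POLR3B, which form the catalytic centre, had values of -0.06 and 0.26 and were not called. POLR3G and POLR3F, subunits of the polymerase's initiation module, rose by 0.38 (edgeR adjusted p = 0.0031) and by 0.34 (edgeR adjusted p = 0.0224). With the GC offset none of the 18 rose and 8 fell, POLR2L (-0.43) among them, against 5.97% and 8.57% of all tested genes.

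Of 20 genes of transcription factors and regulators of RNA polymerase III, 8 rose and 8 fell, against 19.1% and 16.9% of all tested genes. Their median was -0.05. SNAPC4, a subunit of the complex that starts transcription of 7SK, RMRP and RPPH1 from promoters outside the gene, fell by 0.61 (SE 0.086, edgeR adjusted p = 3.2e-05), from 35.3 ± 1.52 to 23.1 ± 1.12 CPM (SD, n = 3 each), and by 0.40 with the GC offset. GTF3C5, a subunit of TFIIIC, which binds promoters inside the gene, fell by 0.49 (SE 0.074, edgeR adjusted p = 5.0e-05). Another TFIIIC subunit, GTF3C3, rose by 0.48 (SE 0.083, edgeR adjusted p = 1.5e-04), and SNAPC3 rose by 0.37 (edgeR adjusted p = 8.1e-04). MAF1, the repressor of the polymerase, fell by 0.31 (SE 0.072, edgeR adjusted p = 0.0019), but had -0.10 with the GC offset (edgeR adjusted p = 0.259). With the offset 1 of the 20 rose, GTF3A, and 3 fell.

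Over the 70 tested genes of these 6 lists, 19 rose (27.1%) and 26 fell (37.1%), against 19.1% and 16.9% of all tested genes. With the GC offset 2 of the 70 rose and 15 fell, and over all tested genes the offset also left fewer calls, 5.97% higher and 8.57% lower. The lists were chosen with earlier results of these libraries known and were not compared with other lists. Each tested gene of these lists had at least 193 counts in every library, where RPPH1, also among the tested genes, had 11 to 20. A call comes more easily at greater depth. Depth was not matched, so here and for each list above the shares were not compared like for like. The plot of protein genes shows that each list held values on both sides of 0.

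**Figure D4:**
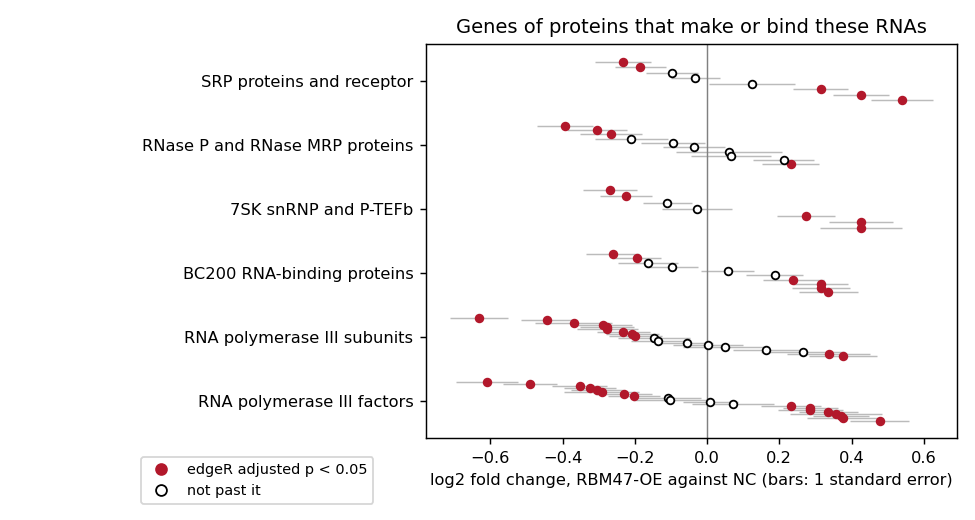
Log2 fold change, RBM47-OE against NC, of each tested gene of the 6 lists of proteins that make or bind these RNAs, sorted within a list, with bars of 1 standard error and red for an edgeR adjusted p under 0.05. Values run from -0.63 (POLR2L) to 0.54 (SRP72), and every list has called genes in both directions.

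The genes whose pattern over the 6 libraries was most like that of BCYRN1 were found by the root mean square difference of log2 CPM, each gene centred on its own mean, among 14006 genes. SNHG9, the host gene of a small nucleolar RNA, was nearest at 0.216, where the median over the genes compared was 0.863. SNHG9 drew 136, 191 and 135 counts under NC and 70, 48 and 68 under RBM47-OE. Its groups did not overlap, with all RBM47-OE below all NC, as in 23.4% of all tested genes on CPM. The log2 fold change of SNHG9 was -1.37 (SE 0.188). Next came GAS6-DT at 0.418, then RP11-425L10.1 at 0.438, RP11-804A23.2 at 0.439 and EFHD1 at 0.440. Their log2 fold changes were -0.82, -0.87, -0.84 and -0.98, all smaller in size than that of BCYRN1. These genes were chosen by likeness to a gene that is lower in RBM47-OE, so neither their direction nor the separation of SNHG9 carries a test.

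The differences were computed again under 17 alternative settings, which the plot of settings shows for each RNA. BCYRN1 ran from -1.94 to -1.31. Because it was chosen for a difference in which all RBM47-OE libraries lay below all NC libraries, values below 0 throughout test nothing. Among the others, 7SK and RPPH1 stayed below 0, from -0.72 to -0.37 and from -0.58 to -0.14. RN7SL1 ran from -0.41 to 0.03 and RMRP from -0.34 to 0.13, so neither kept a direction.

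**Figure D5:**
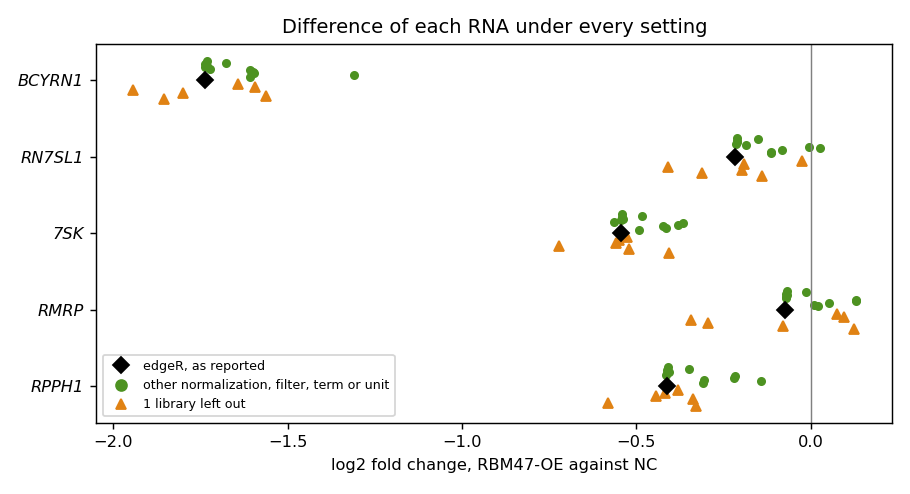
Log2 fold change of each RNA, RBM47-OE against NC, as reported (black diamonds), under 11 other normalizations, filters, terms or units (green circles) and with each of the 6 libraries left out (orange triangles). The points of BCYRN1 lie between -1.94 and -1.31, apart from those of the other RNAs, and those of RMRP lie on both sides of 0. Since BCYRN1 was chosen for its difference, the place of its points is a description and not a test.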

How the data were processed

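Poly(A) RNA of 3 NC and 3 RBM47-OE libraries of HCT116 cells was sequenced in paired ends. Reads were trimmed and then mapped to GRCh38 by the authors, using HISAT2. The authors deposited raw counts of uniquely mapped reads per gene, and FPKM values that the authors computed from gene length and mapped fragments. The labels and the methods name different kits, both stranded, and the counting tool, its annotation and its use of strand are not given in the sources used here. Uniquely mapped counts leave out reads of repeated sequence, and poly(A) selection depletes RNAs without a tail.

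Counts were tested with edgeR 4.0.16 in R 4.3.3 (filterByExpr with minimum count 10 and minimum total count 15, TMM, quasi-likelihood test, condition only) and p-values were adjusted by Benjamini-Hochberg over 16260 genes. Standard errors are the log2 fold change divided by the root of the F statistic, and intervals are 1.96 of them on each side. The GC offset is a loess curve (span 0.3) of each library's difference on exonic GC content. Alternatives were RLE factors, library totals, DESeq2 1.42.0, a minimum of 10 counts per library or no minimum, a block for the replicate number, GC and length offsets, limma 3.58.1 on log2(FPKM + 1) and log2(FPKM + 0.1) for a mean FPKM of at least 0.1, and each library left out. The fits were also run on simulated counts with no GC trend, with changes planted only in genes deeper than BCYRN1, RMRP and RPPH1. That run therefore does not show how the fits perform at the depth of these RNAs or under the GC trend. Totals of 26792409 to 35477983 counts per library set the precision, and few counts fell on these RNAs except RN7SL1.

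The members and lists were chosen with earlier results of these data known. Named beside them were genes near BCYRN1 (some listed items are not reported here), up to 2 genes of lowest adjusted p per list and direction, and the 5 genes most like BCYRN1 with a mean log2 CPM of at least 0. POP5, SRP9, SRPRA, SRP14, PABPC1, HEXIM1, HEXIM2, POLR3A, POLR3B, GTF3A and MAF1, the values of RN7SL3, TERC, SNORD17, SNORA73B, SCARNA2 and SNORD3B-1, and the pseudogene rows were added after values were seen. Coordinates and sequences are from GENCODE 44 and GRCh38. RMRP was counted under an identifier that GENCODE 44 does not hold, and its GC content was taken from the RMRP gene of that release.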

Additional observations from a re-analysis of the deposited data

How the results depend on the processing

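Under the 17 alternatives BCYRN1 moved by more than the replicate spread with limma on log2(FPKM + 1) alone (-1.31), and each library left out gave -1.94 to -1.56. RN7SL1 passed the test without a filter (-0.21, edgeR adjusted p = 0.0247) and turned to 0.027 with the GC offset and replicate block. Left-out libraries gave -0.41 to -0.025, passing without NC replicate 3. 7SK passed with limma on log2(FPKM + 1) (-0.42) and log2(FPKM + 0.1) (-0.49), and ran from -0.72 to -0.41 with a library left out, passing without RBM47-OE replicate 1. RMRP turned to 0.13 with the GC offset with or without the block, 0.052 with the length offset, 0.0086 and 0.022 with limma, and -0.34 to 0.12 with a library left out (0.07 without NC replicate 1, 0.09 without NC replicate 2, 0.12 without RBM47-OE replicate 3). RPPH1 kept its direction, -0.58 to -0.33 with a library left out. The causes were not tested.

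Of all tested genes, 3100 were called higher and 2740 lower. With the GC offset the counts were 971 and 1393, with that offset and the block 1044 and 1461, and with limma 1586 and 1599 were lower. Library totals gave 3693 and 1889, a split further toward higher. Left-out libraries gave 2090 to 3864 higher and 1675 to 3508 lower, the lowest without NC replicate 2 and the highest without RBM47-OE replicate 1. Replicate numbers did not pair the libraries: same-numbered deviations correlated at -0.060, -0.015 and -0.016, and the replicate block gave 2957 higher and 2510 lower, BCYRN1 at -1.72, RN7SL1 at -0.19 and 7SK at -0.56, with the calls of these RNAs unchanged.

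List calls are given as higher and then lower. For the SRP list (3 and 2), the GC offset gave 1 and 1, with the block 0 and 1, and the lower count was 0 with library totals and both limma fits and 1 with no filter and with the block. For RNase P and MRP (1 and 3), the higher count was 2 with library totals, DESeq2, 10 counts in every library and both limma fits, and 0 with the GC offset, with or without the block, and the length offset. For the 7SK particle (3 and 2), both GC offset fits gave 0 and 0, and the lower count was 1 with library totals and 0 with limma. For BC200-binding proteins (4 and 2), both GC offset fits gave 0 and 1, and the lower count was 1 with library totals, no filter, the block, the length offset and limma. For polymerase subunits (2 and 9), both GC offset fits gave 0 higher and limma 4 lower. For polymerase factors (8 and 8), both GC offset fits gave 1 and 3, limma 5 and 5, and library totals 5 lower. With a library left out, the ranges were 3 to 3 and 0 to 2 (SRP), 0 to 2 and 2 to 3 (RNase P and MRP), 1 to 3 and 1 to 2 (7SK), 3 to 5 and 0 to 2 (BC200), 1 to 4 and 4 to 9 (subunits), and 5 to 8 in both directions (factors). The subunits' 4 lower were without RBM47-OE replicate 2 and their 4 higher without RBM47-OE replicate 1, while the lower counts of 0 were without NC replicate 2 for the SRP and BC200 lists, and also without NC replicate 1 and RBM47-OE replicate 2 for SRP.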

Other observations

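RN7SL5P, a 7SL pseudogene on the plus strand at chr9:9442060-9442380 inside an intron of PTPRD, drew 1, 4 and 2 counts under NC and 0, 18 and 29 under RBM47-OE, in order of replicate number. It was singled out after its values were seen, and the RBM47-OE libraries spanned the NC range. Without this gene the 7SL pseudogenes held 101, 88 and 76 counts in NC and 96, 75 and 67 in RBM47-OE.
SCARNA2, a Cajal body RNA that did not pass the filter on low counts, had 7, 8 and 9 counts in NC and 3, 3 and 2 in RBM47-OE, also singled out after its values were seen. RN7SL832P, likewise named after its values were seen, is annotated as a single-exon noncoding RNA of 1756 bases, against 299 for RN7SL1. Its row had 13, 17 and 8 counts in NC and 7, 3 and 6 in RBM47-OE. The 61 rows of U6 pseudogenes held 18, 22 and 14 counts in NC and 32, 22 and 15 in RBM47-OE.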
